A study of Rattus norvegicus with 4 samples.

Results

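Glutathione transferases were examined in liver taken from 4 male rats of the Sprague-Dawley stock, 10 to 12 weeks old and given no treatment. They were bred at a national institute in Finland and fed standard chow without restriction. The 10 genes were Gstm1, Gstm2, Gsta4, Gstp1, Gstt1, Gstt2, Gstk1, Gsto1, Mgst1 and Mgst2, and each was taken from every probe set annotated with its symbol alone. That gave 10 probe sets of 15923 on the array, 1 for each gene, among 10412 named genes. Each rat had its own Affymetrix expression array, and all 4 arrays form 1 control group, so nothing was compared between groups. A difference between rats and a difference between arrays cannot be told apart. Since each gene had 1 probe set, no second probe set was at hand to check its pattern.

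Glutathione transferases join the tripeptide glutathione to electrophilic compounds, which makes drugs, carcinogens and products of lipid peroxidation more soluble and readier for export. The cytosolic enzymes work as dimers and are grouped into classes such as mu, alpha, pi, theta and omega. The kappa enzyme sits in mitochondria and peroxisomes, and the microsomal enzymes are integral proteins of a separate family called MAPEG, named for eicosanoid and glutathione metabolism. Liver is a main site of this conjugation, and several of the genes can be induced through NRF2, a transcription factor that binds the antioxidant response element.

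The sequences just upstream of 3 genes are given. Gstp1, a flat gene, and Gstm1 carry the elements planned for the search, the antioxidant response element and the TATA box. Gstm2 is the neighbour of Gstm1, and the values of these 2 across rats differed. Of the motifs searched, Gstm2 carries only CCAAT boxes, which were added after the promoters were read. The sequences are from the RefSeq promoter table of build GRCr8. Each is the 250 bases before the transcript start, written 5′ to 3′ on the strand of the gene. Gstp1 lies at chr1:210769706-210769955 on the minus strand, Gstm1 at chr2:198343384-198343633 on the minus strand and Gstm2 at chr2:198316918-198317167 on the minus strand. Capitals mark the longer core of the antioxidant response element in Gstp1, CCAAT boxes on either strand in Gstm1 and Gstm2 (ATTGG where the match is on the opposite strand), and the TATA box in Gstm1.
Gstp1: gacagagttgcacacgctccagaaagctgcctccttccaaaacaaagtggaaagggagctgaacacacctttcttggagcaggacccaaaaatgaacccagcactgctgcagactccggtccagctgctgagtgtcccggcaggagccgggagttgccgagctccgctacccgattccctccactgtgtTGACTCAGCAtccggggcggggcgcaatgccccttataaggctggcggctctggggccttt
Gstm1: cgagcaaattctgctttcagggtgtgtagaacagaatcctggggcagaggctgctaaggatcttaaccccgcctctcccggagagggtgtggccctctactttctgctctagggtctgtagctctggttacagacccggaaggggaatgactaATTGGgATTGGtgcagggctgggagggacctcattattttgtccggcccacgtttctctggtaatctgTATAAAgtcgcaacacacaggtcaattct
Gstm2: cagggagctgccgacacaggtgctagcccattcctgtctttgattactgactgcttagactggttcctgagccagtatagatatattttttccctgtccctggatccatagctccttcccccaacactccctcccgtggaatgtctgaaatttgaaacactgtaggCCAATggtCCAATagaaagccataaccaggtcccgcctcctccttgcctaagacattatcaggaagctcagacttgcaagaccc

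The table held a promoter for 7 of the 10 genes, and not for Gstt1, Gstt2 and Mgst2. In the window of 300 bases, from 250 before to 50 after the start, the antioxidant response element core TGACNNNGC was found on either strand in 1 of the 7, Gstp1, where it began 61 bases upstream of the start. Of 33469 promoters in the table, 12.1% held this core, and 3% held the longer form with a further A at its end, which contains the shorter one and matched at the same place in Gstp1. The TATA box TATAAA, searched on the gene's own strand, was found in 1 of the 7, Gstm1, 29 bases upstream of the start, and in 8.8% of all promoters. Only these exact letters were counted, so the near form ttataagg in the Gstp1 sequence above was not. The CCAAT box was found on either strand in 4 of the 7 (37.5% of all promoters). It occurred 2 times in both Gstm1 and Gstm2, and 2 or more times in 11.2% of all promoters. In Gstm1 the boxes lay 97 and 91 bases upstream of the start on the opposite strand, and in Gstm2 they lay 84 and 76 bases upstream on the gene's own strand. The GC box GGGCGG was found on either strand in 5 of the 7 (33.1% of all promoters). CCAAT and GC boxes were added after these same promoters were read, so their counts describe the sequences and support nothing further. A match describes the letters of this window and is not a measured binding site, and no binding was measured in these livers.

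**Figure D1:**
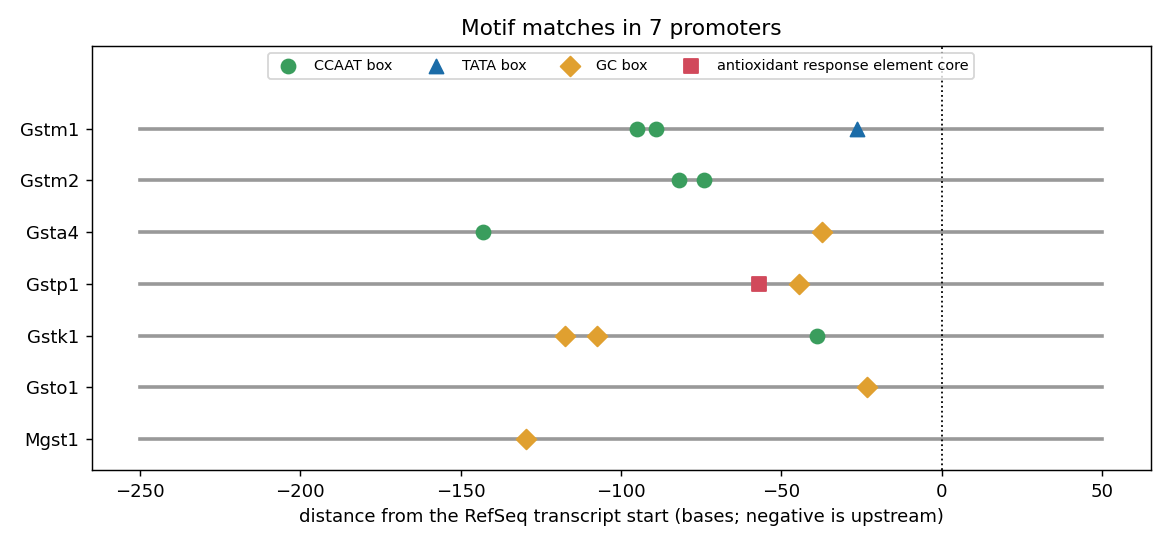
Positions of motif matches in the promoters of 7 glutathione transferase genes; the horizontal axis is the distance in bases from the RefSeq transcript start, each grey line is 1 promoter window and each symbol the centre of 1 match. The antioxidant response element core appears in Gstp1 and in no other of the 7 windows, and the paired CCAAT boxes of Gstm1 and Gstm2 lie at similar distances from their starts. CCAAT and GC boxes were added after the promoters were read.

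The values are log2 signals as deposited, already on a common scale, with a median of 8.11 on each of the 4 arrays. How bright a probe set is depends partly on its probes, so signals are no measure of relative transcript amounts. Where signals of different genes are set against the background level, or the brightest of a list are named, the order is one of signal only. Background was set at 8.91 on the log2 scale. This is the 95th percentile over 86 probe sets, by their means, for 62 genes typical of nerve, muscle, germ or retinal tissue. A probe set was called flat where its 4 values were equal to within 0.001, which held for 43.5% of all probe sets. The hepatocyte markers were above background for 11 of 11 measured genes, with albumin (Alb) at 15.06 ± 0.017 (SD, n = 4) and transthyretin (Ttr) at 14.32 ± 0.016. Kupffer cell markers were above background for 7 of 7 measured genes, stellate cell and fibroblast markers for 2 of 10, endothelial markers for 1 of 6, blood cell markers for 1 of 5 and bile duct markers for 0 of 5. The share of all named genes above background was 23.5%. With the muscle gene Myh1 left out of the background genes the level was 8.30, and 47.5% of all named genes were above it. Col1a1 (8.54), Col1a2 (8.57), Acta2 (8.47), Lyve1 (8.69) and Alas2 (8.33) were then above it as well. Epcam, the highest of the bile duct markers, was at 8.24. In such bulk tissue, fewer cells of a type and less RNA per cell cannot be told apart.

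All 10 transferase genes had mean signals above the background level, as had 23.5% of all named genes. Their mean log2 signals ran from 9.22 to 13.65. The list median was 10.26. With the 90th percentile as the level, or with the muscle gene Myh1 left out of the background genes, all 10 were still above it, as were 48% and 47.5% of all named genes. With the 98th percentile, a log2 signal of 10.59, 3 were above it (Gstm1, Gstm2 and Mgst1), as were 4.87% of all named genes. Of the 10, 3 were flat (Gstp1, Gstt1 and Gstk1), against 26% of all genes above background, and the values of the other 7 differed by more than that tolerance. The genes were chosen with such results of these data known, so these counts describe them and support nothing further.

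**Figure D2:**
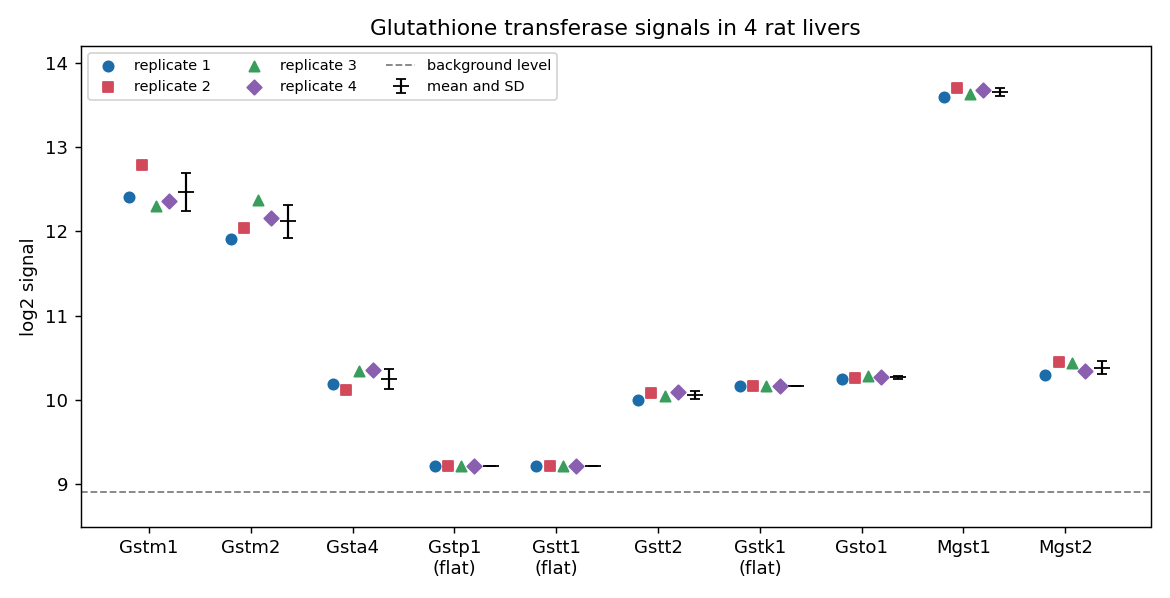
Log2 signal (vertical axis) of 10 glutathione transferase genes in each of 4 rats, 1 symbol per rat, with the mean and SD in black and the background level of 8.91 as a dashed line. All genes lie above the line, Gstp1 and Gstt1 closest to it at 9.22, and the symbols of Gstm1 and Gstm2 are the most spread.

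The mu class was represented by Gstm1 and Gstm2, neighbouring genes in the GRCr8 annotation. Gstm1, one of the main subunits of rat liver, had log2 signals of 12.41, 12.79, 12.30 and 12.37 in replicates 1 to 4. Replicate 2 stood above the other 3 rats, which lay within 0.11 log2 units of one another. The mean was 12.47 ± 0.22 (SD, n = 4), and the highest rat exceeded the lowest by 0.49 log2 units, or 1.41-fold.

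Gstm2 had log2 signals of 11.91, 12.04, 12.37 and 12.16 in replicates 1 to 4. Here replicate 3 was highest and replicate 1 lowest, and replicate 2, the high rat of Gstm1, was below the mean. The mean was 12.12 ± 0.20 (SD, n = 4), with a range of 0.46 log2 units, or 1.38-fold. The neighbours did not follow each other across these rats. The root mean square difference of their centred values was 0.31 log2 units, a measure that grows with the SDs of both genes. Genes of the mu class have similar sequences, and how far their probe sets respond to one another's transcripts was not tested.

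Gsta4, the alpha class enzyme known for conjugating hydroxynonenal and other products of lipid peroxidation, had log2 signals of 10.19, 10.12, 10.35 and 10.36 in replicates 1 to 4. Replicates 3 and 4 were alike and both lay above replicates 1 and 2. The mean was 10.25 ± 0.12 (SD, n = 4) and the range 0.24 log2 units.

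The pi class gene Gstp1, whose protein is a classical marker of preneoplastic foci in rat liver, had a flat signal of 9.22 in all 4 rats, 0.31 log2 units above background. Its 4 values agree to within 0.001, so no SD of the animals can be taken from them. Bile duct cells are a known site of this protein in normal liver. Of their 5 measured markers, 0 were above background, with Epcam highest at 8.24 ± 0.097 and Spp1 at 8.10 ± 0.033, and their mean log2 signal differed by 0.13 between the highest and the lowest rat. That difference rests largely on Onecut1, named after its values were seen, with a range of 0.84. Krt19 and Krt7 were flat. The part of those cells in the Gstp1 signal was not tested. Gstp1 was also the gene with the antioxidant response element core in its window.

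In the theta class, Gstt1, which acts on small halogenated alkanes, was flat at 9.22 in all 4 rats. Gstt2, known for its activity towards aralkyl sulfate esters, had 10.00, 10.09, 10.05 and 10.10 in replicates 1 to 4. Replicate 1 was lowest, but the whole range was 0.095 log2 units, around a mean of 10.06 ± 0.043 (SD, n = 4). Gstk1, the kappa enzyme, was flat at 10.16.

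Gsto1, the omega enzyme, which reduces dehydroascorbate and methylated arsenic compounds, had 10.25, 10.27, 10.29 and 10.27 in replicates 1 to 4. Its mean was 10.27 ± 0.018 (SD, n = 4), the smallest SD among the 7 genes that were not flat.

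Among the microsomal enzymes, Mgst1, an abundant protein of the endoplasmic reticulum and the outer mitochondrial membrane, had 13.60, 13.71, 13.63 and 13.68 in replicates 1 to 4. The rats differed by at most 0.11 log2 units around a mean of 13.65 ± 0.049 (SD, n = 4). Mgst2, which can also conjugate leukotriene precursors, had 10.29, 10.45, 10.44 and 10.34. Both microsomal genes were lowest in replicate 1 and highest in replicate 2, and the range of Mgst2 was 0.16 log2 units around a mean of 10.38 ± 0.077 (SD, n = 4).

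**Figure D3:**
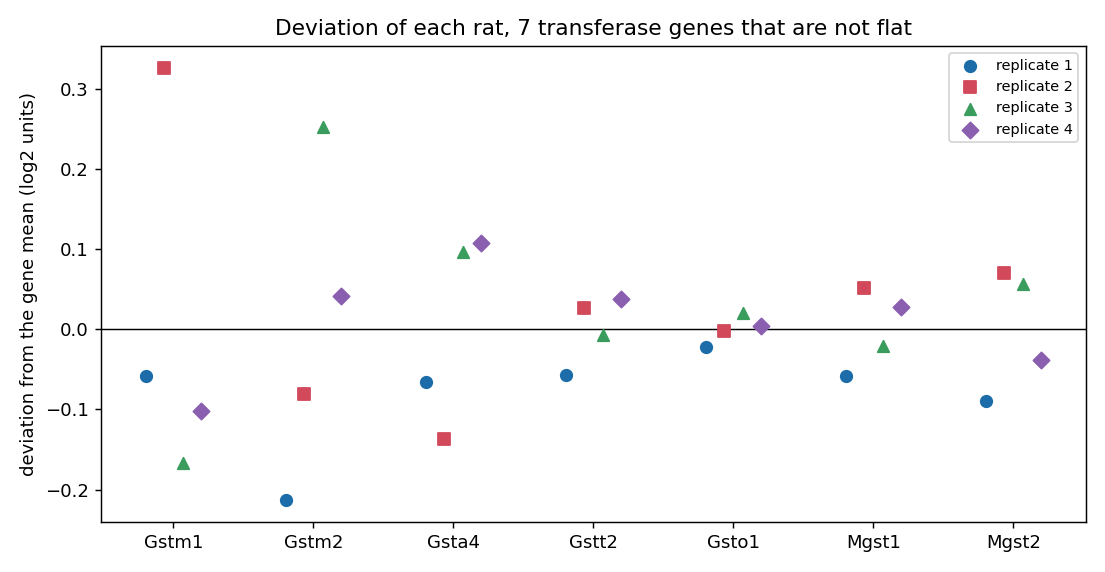
Deviation of each rat from the mean of the gene, in log2 units, for the 7 transferase genes that are not flat, with 1 symbol per rat. Replicate 1 is the lowest symbol in 5 of the 7 genes and the highest in none, Gstm1 is set apart by replicate 2 and Gstm2 by replicates 1 and 3.

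Of the 7 genes that were not flat, 5 were lowest in replicate 1 (Gstm2, Gstt2, Gsto1, Mgst1 and Mgst2), 1 in replicate 2 (Gsta4) and 1 in replicate 3 (Gstm1). Among all 1811 genes above background and not flat, 31.5% were lowest in replicate 1, 33.5% in replicate 2, 15.4% in replicate 3 and 19.7% in replicate 4. The gap between replicate 1 and the next rat was small in most of the 5, from 0.020 log2 units in Gsto1 to 0.13 in Gstm2. The median deviation of the 7 genes in replicate 1 was -0.059 log2 units, against -0.0049 for all genes. Highest values fell in replicate 2 for 3 genes, replicate 3 for 2 and replicate 4 for 2, where 18%, 36.8% and 21.9% of all genes were highest. Replicate 1 held the highest value of 0 of the 7, and of 23.3% of all genes.

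In replicate 1 the hepatocyte markers had a median deviation of -0.015 log2 units, and 5 of 11 were lowest there. Of all genes above background and not flat, 31.5% were lowest in that rat. The mean log2 signal of the hepatocyte markers was 12.94, 13.07, 13.17 and 13.02 in replicates 1 to 4. Tat (9.52 in replicate 1, 11.10 in replicate 3) and Apoa1 (12.34 and 13.03), named after their values were seen, had the widest ranges of the 11, while Alb, Ttr and Serpina1 each differed by less than 0.04 between rats. The Kupffer cell markers had a median deviation of -0.14 in replicate 1, where 3 of 6 that were not flat were lowest, and a mean log2 signal of 9.76 against 9.82 to 9.98. In replicate 2, where Gstm1, Mgst1 and Mgst2 were highest, 5 of these 6 Kupffer cell markers and 2 of 2 stellate cell and fibroblast markers above background were highest too, with median deviations of 0.092 and 0.22. Of all genes, 18% were highest in that rat. The 2 stellate cell and fibroblast markers were Col3a1 and Reln, and Col3a1 was nearly as high in replicate 4 (11.147) as in replicate 2 (11.150). In replicate 3, where Gstm1 was lowest, these 2 markers were lowest, with a median deviation of -0.41. Of all genes, 15.4% were lowest there. The mean log2 signal of all 10 stellate cell and fibroblast markers ran from 8.18 in replicate 3 to 8.62 in replicate 4, with 8.60 in replicate 2. Beta haemoglobin (Hbb) was highest in replicate 1, at 11.91 against 11.00 to 11.64. The part of these cell types in the transferase signals was not tested. The 4 arrays were washed on 4 different modules of 1 fluidics station, 1 array on each.

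The median SD of the 7 genes was 0.077 log2 units, against 0.071 for the 1811 genes above background and not flat. Within it the SD ran from 0.018 to 0.22. Of all genes above background and not flat, 11.1% had a larger SD than Gstm1, 13.4% a larger SD than Gstm2 and 26.9% a larger SD than Gsta4. The value of Gstm1 rested on replicate 2: without that rat its SD was 0.055, 57.9% of genes had a larger one, and the median over all genes was 0.066. The SD of Gstm2 was 0.13 without replicate 3, and 23.3% of genes had a larger one. For Mgst2 this share was 46.9%, for Mgst1 67%, for Gstt2 72.7% and for Gsto1 93.4%. With 4 rats on 4 arrays no test of these spreads was made.

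**Figure D4:**
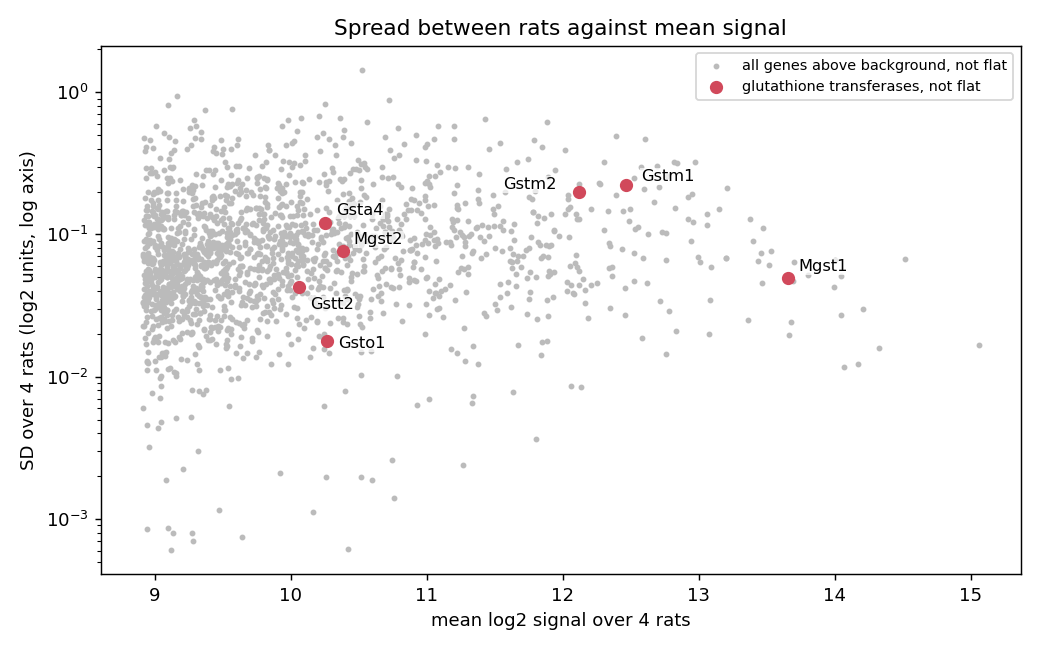
SD over 4 rats (vertical, log axis, log2 units) against mean log2 signal (horizontal) for 1811 genes above background and not flat, in grey, with 7 glutathione transferases in red. Gstm1 and Gstm2 lie high in the cloud with SDs of 0.22 (0.055 without replicate 2) and 0.20, and Gsto1 lies low with 0.018.

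The genes whose 4 centred values lay closest to those of Gstm1 were Abhd2, Tars1, Galt, Pdlim1 and Ptprf, with root mean square differences from 0.052 to 0.078 log2 units over the 4 rats. The median over the 1810 genes compared was 0.21. Abhd2, a lipid hydrolase, was at 9.64, 10.08, 9.68 and 9.68 in replicates 1 to 4, with replicate 2 high as in Gstm1. The genes closest to Gstm2 were Ubl5, Cldn2, Kyat3, Grcc10 and Lsr, with differences from 0.017 to 0.042 and a median of 0.17 over all. Ubl5, a ubiquitin-like protein, was at 9.69, 9.87, 10.19 and 9.96, with the order of rats seen in Gstm2. Over 4 values many genes resemble any given one, so these names describe the data and no likeness was tested.

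Of 20 other transferase and MAPEG genes listed, 13 were measured and 7 lay above background, against 23.5% of all named genes. Gsta1, a main alpha class subunit, was at 12.17, 12.13, 11.89 and 12.19 in replicates 1 to 4, low in replicate 3 (mean 12.10 ± 0.14, SD, n = 4). Gstz1, which isomerises maleylacetoacetate in tyrosine breakdown, was flat at 11.04. Gstm7, another mu class gene, had 9.18, 9.62, 9.79 and 9.66, and so was lowest in replicate 1 and highest in replicate 3, as Gstm2 was. The other 4 above background were Mgst3, Gstt3, Gstm4 and Ltc4s, named after their values were seen. Below background were Gsta3 at 7.31 ± 0.21 (SD, n = 4), Gstm3, Gstm5, Hpgds, Ptges and Alox5ap. Gsta3 was read by 1 probe set. Another probe set, annotated with 2 symbols of the alpha class and with a mean of 11.95, was left out of these counts.

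Genes of glutathione synthesis and breakdown were above background for 6 of 10 measured, against 23.5% of all named genes. Of these 6, 5 were not flat. Cystathionine gamma-lyase (Cth), which supplies cysteine, was at 11.95, 11.29, 11.68 and 11.41 in replicates 1 to 4. Its companion in transsulfuration, Cbs, was at 10.69 ± 0.079 (SD, n = 4). Oplah, which recycles oxoproline to glutamate, had 9.79, 8.66, 9.71 and 9.19, a range of 1.12 log2 units or 2.18-fold. Of the 5 genes, 3 (Cth, Oplah and Gclm) were highest in replicate 1, the rat in which 5 of the 7 transferase genes that were not flat were lowest, and 4 were lowest in replicate 2. Of all genes above background and not flat, 23.3% were highest in replicate 1 and 33.5% lowest in replicate 2. Gclm, the modifier subunit of the rate-limiting ligase, was at 10.31 in replicate 1 and 9.68 to 9.98 in the others, and was named after its values were seen.

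Redox enzymes that use glutathione or thioredoxin were above background for 13 of 18 measured genes, against 23.5% of all named genes. Of the 13, 4 were flat, among them thioredoxin (Txn1) at 11.79. Glutathione peroxidase Gpx1 was at 12.67, 12.34, 12.26 and 12.28 in replicates 1 to 4, with replicate 1 highest. Of the 9 genes of this list that were above background and not flat, 4 were highest in replicate 1 and 1 was lowest there. The shares of all genes were 23.3% and 31.5%. The plasma peroxidase gene Gpx3 had the largest SD of the list at 9.13 ± 0.24 (SD, n = 4). Against 23.5% of all named genes, 5 of 10 measured genes for export of conjugates and for mercapturate formation were above background. They included the canalicular conjugate pump Abcc2 at 10.31, 10.15, 9.96 and 9.86 in replicates 1 to 4, and the aminopeptidase Anpep at 10.02, 10.36, 10.49 and 10.21.

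Of the NRF2 system and its other targets, 5 of 11 measured genes were above background, against 23.5% of all named genes. Microsomal epoxide hydrolase (Ephx1) was at 12.64, 13.21, 12.08 and 12.49 in replicates 1 to 4, with a range of 1.13 log2 units, or 2.19-fold. Its rats stood in the same order as those of Gstm1, with replicate 2 highest and replicate 3 lowest, over a wider range. The autophagy receptor Sqstm1 was at 11.75 ± 0.080 (SD, n = 4) by its brightest probe set. Its other probe sets had means of 9.89, 8.08 and 7.90, the last of them flat. Those at 9.89 and 8.08 were highest in replicates 1 and 3. The quinone reductase Nqo1, named after its values were seen, had a mean below background of 8.64 ± 0.90 (SD, n = 4). It was at 9.94 in replicate 1 and from 7.91 to 8.48 in the other rats. Its mean was above the level of 8.30 set without Myh1, as were those of Keap1, Mafg, Me1 and Srxn1 of this list. The aflatoxin aldehyde reductase Akr7a3, likewise named after its values were seen, was highest in replicate 1 at 11.15 and lowest in replicate 3 at 10.32. Of this list, 4 genes were above background and not flat. Of these, 2 (Nfe2l2 and Akr7a3) were highest in replicate 1, against 23.3% of all genes. The other 2, Ephx1 and Sqstm1 by its brightest probe set, were highest in replicate 2, against 18% of all genes. In replicate 3, 3 of the 4 were lowest, against 15.4% of all genes.

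**Figure D5:**
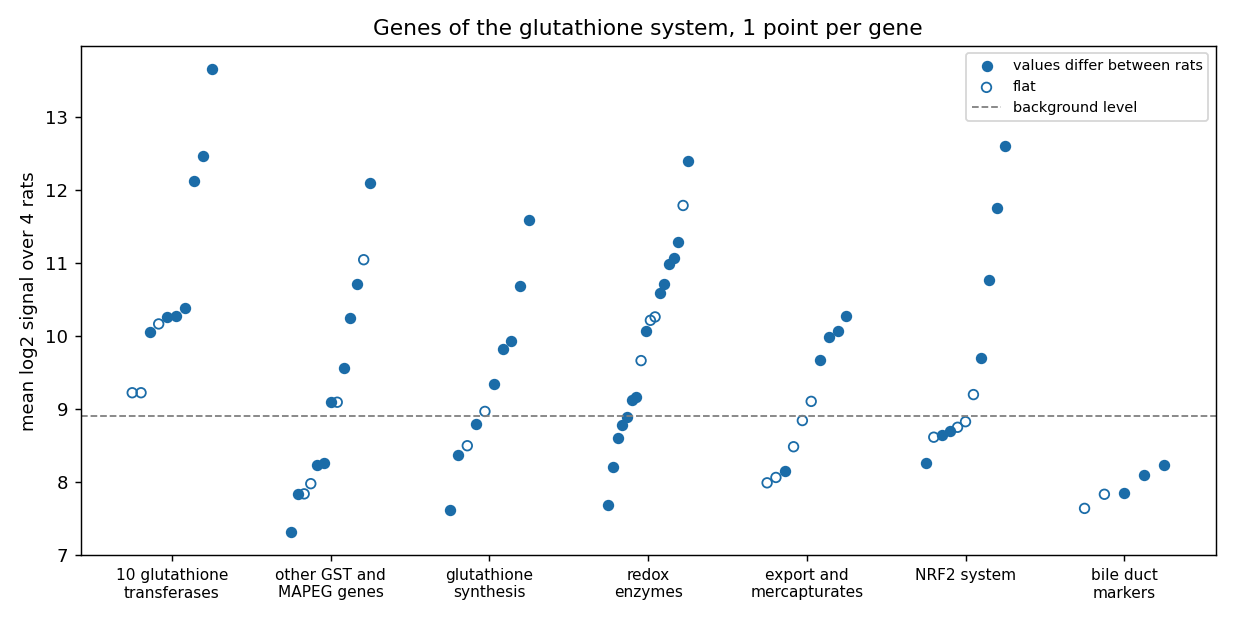
Mean log2 signal over 4 rats (vertical axis) of the 10 transferase genes, 5 lists of the glutathione system and the bile duct markers, 1 point per gene, open where the probe set is flat, with the background level of 8.91 dashed. All 10 transferase genes lie above the line, each of the 5 lists has genes on both sides of it, and the 5 bile duct markers lie below it.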

How the data were processed

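Liver RNA (1.5 µg as template, 15 µg cRNA hybridized, per the labels' protocols) of 4 rats was measured, 1 array each. The deposited values are log2 signals, put on a common scale by the authors. The tools named per the submitters' processing notes are affy 1.12.2 under R 2.4.1, RMA and GCRMA. The role of each is not given in the sources used here, so the method behind the values is unknown. The scanner settings name the array RAE230A and the labels RAE230-2. All arrays share 1 lot, scan day and station, so no batch could be fitted.

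Of 15923 probe sets, 12789 had 1 gene symbol, 312 several and 2822 none, per the platform annotation. A gene stood for its probe set with the highest mean. Older symbols were matched by gene number, because 2 synonyms of Gstm1 and Gstm2 equal the symbols of Gsta3 and Gsta4. RefSeq tables of GRCr8 gave names, neighbours and promoters. No test was run, since there was 1 group. SDs are over 4 rats, whose number limits the precision.

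The genes and lists were chosen with earlier results of these data known. Named genes were the 10 transferases, the 2 with the highest mean and the 1 with the largest SD above background of each pathway list, the 2 with the highest mean of each cell type list, and the 5 nearest to each of the 2 transferases with the largest SD. CCAAT and GC boxes were added after the promoters were read. Alternatives covered the background level, probe sets, scaling, the tolerance for flat values, the measure of spread, the motif and leaving out each rat. Python 3.11.15, numpy 2.4.6, pandas 2.3.3 and matplotlib did the work, tested on simulated data.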

Additional observations from a re-analysis of the deposited data

Results flagged for a closer look

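In 3 of the 39 genes that the naming rule gave and whose values were not flat, 1 rat lay far from the other 3 relative to the range of the 4 values. In replicate 2, Abhd2 was at 10.08 (9.64 to 9.68 in the others), Tars1 at 10.16 (9.83 to 9.86) and Ptprf at 10.29 (10.01 to 10.03). All 3 had been named for their likeness to Gstm1, which was itself highest in that rat, so this choice raised their number as well as fixing the rat, and the count is not set against the 5% of groups that chance flags. Outside the rule for the 10 genes, 1 probe set annotated with 2 symbols of the alpha class gave a signal above background, with a mean of 11.95 ± 0.019 (SD, n = 4). It was not assigned to either gene.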

How the results depend on the processing

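The count of 10 transferase genes above background held at the 90th percentile, without Myh1, with each other choice of probe sets or scaling, and without each rat (10 to 10). At the 98th percentile 3 were above it (Gstm1, Gstm2 and Mgst1). Of the 5 probe sets of Myh1 in the background list, 4 had means from 10.04 to 11.49, so the upper percentiles rest on that gene. The share of all named genes above background was 48% at the 90th percentile, 4.87% at the 98th, 47.5% without Myh1 and 43% without the probe sets whose names carry the suffix s, x or a. Counts of the marker and pathway lists were made at 8.91 alone, where 23.5% of all named genes were above background. Without Myh1 the level was 8.30, and several genes of those lists lay between these levels. The median SD of 0.077 ranged from 0.055 (without replicate 2) to 0.088 without 1 rat each. It was 0.20 at the 98th percentile, 0.046 with flat probe sets kept, and the median range was 0.16. The count of 5 genes lowest in replicate 1 was 5 to 6 without 1 other rat each, 5 under both scalings and 2 at the 98th percentile, where 3 genes were left. With quantile normalization 5 genes, in place of 3, were highest in replicate 2. Of 120 mean values of the 10 genes under the alternatives 1 moved by more than its SD or the tolerance of 0.001 (the flat Gstk1, with quantile normalization), and of 120 SDs 10 moved by over 1.5 times. Of these, 6 were of the 3 flat genes under the 2 scalings, and 4 were lower without 1 rat: Gstm1 at 0.055 without replicate 2, Gstm2 at 0.13 without replicate 3, and Gstt2 at 0.023 and Gsto1 at 0.012 without replicate 1. The mean of Ubl5 fell to 8.86 with the median of its probe sets, or without those of suffix s, x or a. That of Sqstm1 fell to 8.99 with the median of its probe sets. The longer motif core was found in the same 1 promoter. No paired analysis was possible because there was 1 group. Flat values leave 3 of the 10 genes without a measured spread.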
